A study of Mus musculus with 6 samples.

Results

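The muscle nicotinic acetylcholine receptor and the proteins that gather it under the motor nerve ending were followed as a set of 10 genes in quadriceps muscle of control and miDrp1KO mice. The members were taken by symbol: the receptor subunit genes *Chrna1*, *Chrnb1*, *Chrnd*, *Chrne* and *Chrng*, the agrin receptor and kinase genes *Lrp4* and *Musk*, the adaptor genes *Dok7* and *Rapsn*, and *Colq*, which anchors acetylcholinesterase. All 10 were found among the 27179 genes listed in each library, and 9 passed the filter on low counts that left 16483 genes for testing. The exception was *Chrng*.

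RNA-seq was available for 3 control and 3 miDrp1KO libraries, each from total RNA of quadriceps of mice on normal chow diet. Control mice were labelled as floxed on both *Dnm1l* alleles, although the study's methods allow controls with 1 or 2 floxed alleles. The miDrp1KO mice carry the floxed alleles with HSA-MerCreMer, a Cre recombinase fused to tamoxifen-binding domains and driven by the human skeletal actin promoter, a promoter active in muscle fibres and not in nerve or Schwann cells. Per the study's methods, mice of both genotypes were male, received 4 daily doses of 50 mg/kg tamoxifen when 3 months old and were fasted for 6 hours, and the RNA-seq muscles were taken 3 weeks after deletion. Controls are described by their floxed alleles alone, with no mention of Cre. If they lack it, effects of *Dnm1l* deletion and of active Cre cannot be told apart here.

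In mammals the receptor of adult muscle is a pentamer of α1, β1, δ and ε subunits, whereas fetal and denervated fibres use γ in place of ε. Nerve-derived agrin binds LRP4, which activates the kinase MuSK. Together with DOK7, MuSK then drives rapsyn to cluster receptors at the crest of the junctional folds. In an innervated adult fibre transcription of the subunits is largely confined to the few nuclei beneath the nerve ending, and loss of nerve activity lets nuclei along the whole fibre transcribe *Chrna1*, *Chrng*, *Chrnd* and *Musk* again, through E-boxes bound by myogenic factors such as myogenin. The letters CCGGAA, known as the N-box and bound by ETS factors such as GABP, mark synapse-restricted promoters. Fewer cells of a type, or fewer such nuclei, and less RNA from each cannot be told apart in these whole-muscle libraries.

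The promoters of the subunit that rises on denervation, its adult replacement and the shared α subunit are shown because they carry the letters through which activity and the synapse are known to act. Of the 10 genes, 6 had an entry among the RefSeq promoters (GRCm38.p6). The 250 bases before the start used by that set are given 5′ to 3′ on the gene's own strand, with E-boxes (CANNTG) and the N-box (CCGGAA) in capitals.
Chrna1: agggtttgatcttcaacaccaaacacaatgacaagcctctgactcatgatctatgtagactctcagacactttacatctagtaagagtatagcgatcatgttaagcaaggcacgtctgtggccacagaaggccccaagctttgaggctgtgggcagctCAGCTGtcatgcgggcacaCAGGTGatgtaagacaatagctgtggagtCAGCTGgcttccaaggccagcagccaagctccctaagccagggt
Chrng: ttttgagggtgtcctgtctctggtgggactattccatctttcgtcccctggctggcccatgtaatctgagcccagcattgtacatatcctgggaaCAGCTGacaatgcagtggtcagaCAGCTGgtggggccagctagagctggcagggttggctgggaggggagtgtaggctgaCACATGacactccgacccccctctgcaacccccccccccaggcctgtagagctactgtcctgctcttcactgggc
Chrne: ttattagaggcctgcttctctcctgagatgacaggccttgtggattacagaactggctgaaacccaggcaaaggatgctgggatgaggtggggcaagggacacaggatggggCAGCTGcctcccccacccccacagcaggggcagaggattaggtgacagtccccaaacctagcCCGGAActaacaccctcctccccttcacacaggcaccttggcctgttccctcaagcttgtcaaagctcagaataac
The windows lie at chr2:73580339-73580588 (minus strand) for *Chrna1*, at chr1:87205561-87205810 (plus strand) for *Chrng* and at chr11:70619195-70619444 (minus strand) for *Chrne*. That of *Chrna1* held 3 E-boxes, of which 2 read CAGCTG, and that of *Chrng* likewise held 3, of which 2 read CAGCTG. In the *Chrne* window 1 E-box, which read CAGCTG, and 1 N-box were found, the N-box starting 76 bases before the start. Matches were sought on both strands and no E-box overlapped an N-box in these windows. Over all 32851 promoter windows of this length, 66.2% held CANNTG, 13% held CAGCTG and 12% held the N-box, so an E-box alone sets no promoter apart. Windows of *Chrnb1* and *Musk* held 3 E-boxes each and no N-box, whereas of the 2 windows of *Dok7* the upstream one held 1 E-box and the other 0. The starts used here are not always the outer end of the gene coordinates given below. Windows of *Chrne*, *Chrnb1*, *Musk* and *Dok7* lie partly or wholly inside those coordinates.

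Library totals ran from 13989588 to 62042255 counts in control and from 20028624 to 28829756 in miDrp1KO muscle, and ribosomal RNA genes took 3.36 to 15.6% of the control and 1.47 to 24.4% of the miDrp1KO counts. Levels are given as CPM, counts per 1000000 counts of a library after TMM scaling of its size. *Dnm1l* was lower in every miDrp1KO library (66.2 to 81.3 CPM) than in every control library (114 to 156 CPM), with a log2 fold change of −0.91 (SE 0.18, edgeR adjusted p = 0.362). The 8 muscle fibre markers (*Acta1*, *Ckm*, *Myh1*, *Myh2*, *Myh4*, *Ttn*, *Mylpf*, *Tnnt3*) were all detected. All 8 had negative log2 fold changes, from −1.29 for *Myh4* to −0.03 for *Mylpf*. Their summed level was 227000 to 283900 CPM in control and 98750 to 212800 CPM in miDrp1KO libraries, with no overlap. The junction genes are transcribed by muscle fibres as well, so this difference stands beside all their values below, and its part in them was not tested.

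In the quasi-likelihood test of edgeR, adjusted by Benjamini-Hochberg over all genes, none of the 9 tested junction genes passed the threshold between miDrp1KO and control muscle. Over all genes 0.0121% (2 of 16483) passed the adjusted threshold of 0.05. Without adjustment 1 of the 9, *Chrnb1*, had a p under 0.05, against 10.9% of all genes (4.68% higher and 6.22% lower in miDrp1KO muscle). Limma voom also called 0 of the 9 after adjustment. The independent filtering of DESeq2 gave none of the 9 an adjusted p, so that tool made no adjusted call on them either way. Both tools gave 1 of the 9 an unadjusted p under 0.05. In none of the 9 did the groups separate completely, against 18% of all genes (7.67% higher, 10.3% lower). Log2 fold changes were negative for 8 genes and positive for *Chrnd*, from −0.55 to 0.04, with a median of −0.11 beside 0.017 for all tested genes. Most of these signs are not stable: with total counts as the scale, which moves the median of all genes to 0.26, the median of the 9 genes is 0.16, and only *Chrna1* and *Chrnb1* stay negative. Relative to the median of all genes the median of the 9 lay 0.12 below with TMM and 0.10 below with total counts. When 1 library was left out, this difference ran from −0.287 (without control replicate 2) to −0.0651 (without miDrp1KO replicate 1).

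**Figure D1:**
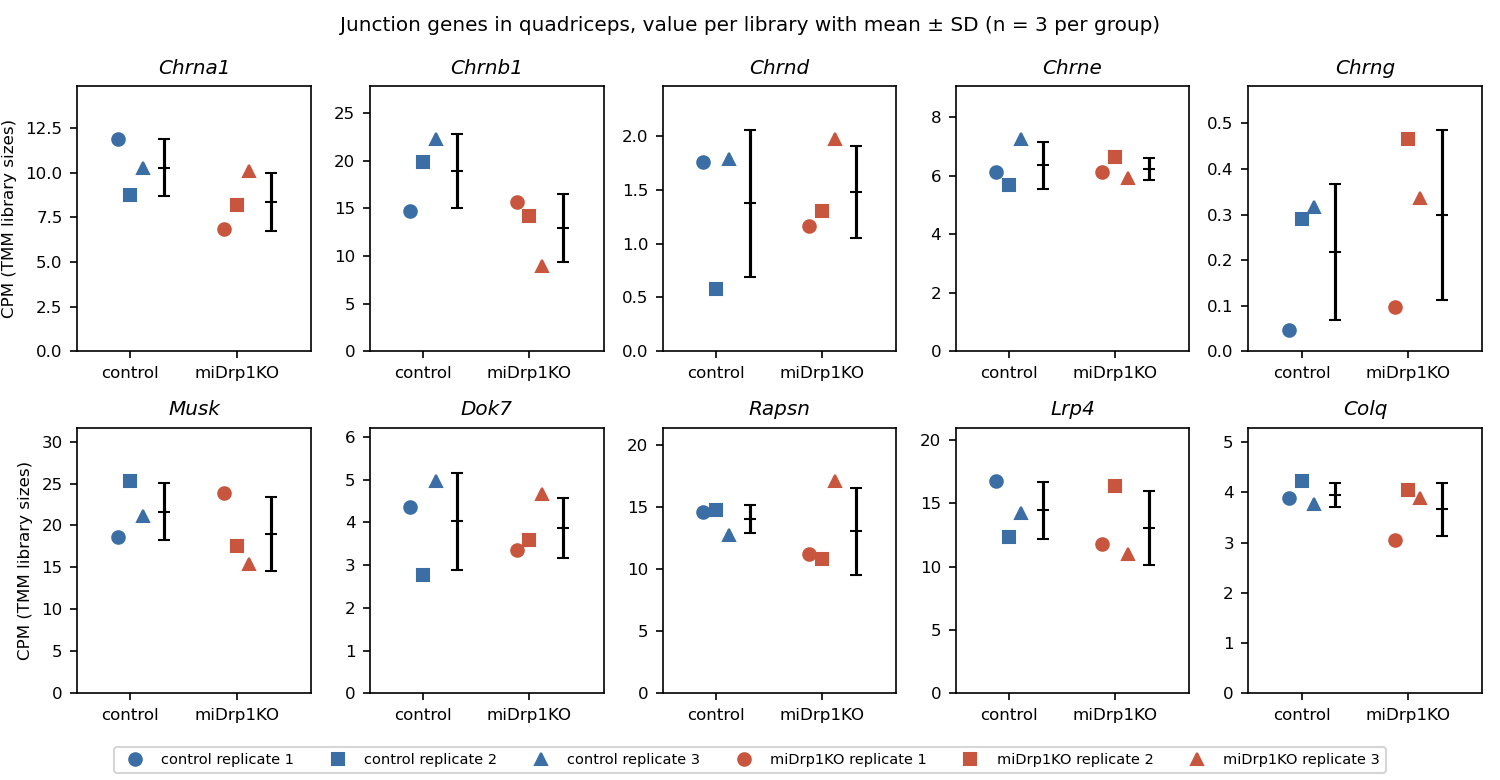
CPM on TMM library sizes (y axis, from 0) of the 10 junction genes in each of 3 control (blue) and 3 miDrp1KO (red) libraries, with the mean ± SD of each group in black; equal shapes in both groups do not mark pairs. The ranges of the groups overlap in every panel, and *Chrng* stays below 0.5 CPM.

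*Chrna1* (Entrez 11435, chromosome 2 of GRCm38, 73563281 to 73580338) encodes the α1 subunit, which holds the acetylcholine binding site and is present in 2 copies per fetal or adult receptor. It was measured at 11.9, 8.75 and 10.2 CPM in control replicates 1, 2 and 3 and 6.85, 8.21 and 10.1 CPM in miDrp1KO replicates 1, 2 and 3. In the miDrp1KO group replicates 1 and 2 lay below every control library, and replicate 3 overlapped them. Mean levels of 10.3 ± 1.57 CPM in control and 8.38 ± 1.62 CPM in miDrp1KO muscle (SD, n = 3 each) gave a log2 fold change of −0.30 (standard error, SE, 0.20, edgeR adjusted p = 0.612). The 95% interval ran from −0.75 to 0.15 on the log2 scale, and its upper limit belongs to this fit alone. The log2 fold change of *Chrna1* ran from −0.428 to −0.154 when 1 library was left out. With total counts as the scale it was −0.0294.

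*Chrnb1* (Entrez 11443, chromosome 11, 69784036 to 69795966) encodes the β1 subunit, through which rapsyn holds the receptor. It was measured at 14.7, 19.9 and 22.3 CPM in control replicates 1 to 3 and at 15.7, 14.2 and 8.93 CPM in miDrp1KO replicates 1 to 3. Control replicates 2 and 3 stood above every miDrp1KO library, while control replicate 1 lay below miDrp1KO replicate 1, so the groups overlapped. Group means of 18.9 ± 3.88 and 12.9 ± 3.53 CPM (SD, n = 3 each) gave a log2 fold change of −0.55 (SE 0.23, 95% interval −1.06 to −0.04, edgeR adjusted p = 0.431). Its unadjusted p of 0.0361 rested on single libraries: it exceeded 0.05 without control replicate 2, without control replicate 3 and without miDrp1KO replicate 3, where the log2 fold change was −0.54, −0.40 and −0.33.

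*Chrnd* (Entrez 11447, chromosome 1, 87190597 to 87200070) encodes the δ subunit and lies 5740 bases upstream of *Chrng* on the same strand. The files hold 37, 8 and 107 counts in control and 24, 53 and 41 counts in miDrp1KO replicates 1 to 3, which correspond to 1.75, 0.583 and 1.78 CPM and to 1.17, 1.30 and 1.97 CPM. The lowest value, in control replicate 2, comes from 8 counts in the shallowest library, and the other 5 libraries lay between 1.17 and 1.97 CPM, with the groups overlapping. The log2 fold change of 0.04 (SE 0.43, edgeR adjusted p = 0.981) had the widest interval of the 9 tested genes, −0.90 to 0.99, and became −0.29 without control replicate 2.

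*Chrne* (Entrez 11448, chromosome 11, 70614883 to 70619213), the ε subunit made by nuclei at the synapse, was measured at 6.11, 5.68 and 7.25 CPM in control and 6.12, 6.64 and 5.90 CPM in miDrp1KO replicates 1 to 3. All 3 miDrp1KO values fell inside the control range. The means of 6.35 ± 0.807 and 6.22 ± 0.380 CPM (SD, n = 3 each) gave a log2 fold change of −0.03 (SE 0.19, 95% interval −0.46 to 0.39, edgeR adjusted p = 0.965).

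*Chrng* (Entrez 11449, chromosome 1, 87205811 to 87211835), the fetal γ subunit that denervation brings back, was near the limit of detection. Counts were 1, 4 and 19 in control and 2, 19 and 7 in miDrp1KO replicates 1 to 3. In CPM these were 0.0473, 0.292 and 0.316 in control and 0.0972, 0.466 and 0.336 in miDrp1KO muscle, where 3 counts correspond to 0.050 to 0.219 CPM depending on the library. In each group replicate 1 was the lowest and the other libraries stood above it, and the groups overlapped. The exact Poisson interval, which covers counting error only, was 0.0012 to 0.264 CPM for the lowest library and 0.28 to 0.727 CPM for the highest. The means of 0.218 ± 0.149 and 0.300 ± 0.187 CPM (SD, n = 3 each) differed by less than either SD (two-sided exact permutation test, p = 0.5, where 3 mice against 3 allow 0.1 at the least). Fitted by edgeR without the filter on low counts, its log2 fold change was 0.46 (SE 0.85, adjusted p = 0.898), so no difference was detectable at this depth.

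As a fetal to adult balance that library size does not enter, *Chrng* made up 0.769, 4.88 and 4.19% of the counts on *Chrng* and *Chrne* in control and 1.56, 6.55 and 5.38% in miDrp1KO replicates 1 to 3. Exact Clopper-Pearson 95% intervals were 0.0195 to 4.21%, 1.34 to 12% and 2.54 to 6.46% in control and 0.19 to 5.53%, 3.99 to 10% and 2.19 to 10.8% in miDrp1KO muscle. Thus *Chrne* supplied most of these counts in every library. The group means were 3.28 ± 2.20% and 4.50 ± 2.61% (SD, n = 3 each), 1.22 percentage points higher in miDrp1KO muscle (two-sided exact permutation test, p = 0.5), and without control replicate 1 this difference was −0.0319.

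*Musk* (Entrez 18198, chromosome 4, 58285729 to 58377848), which encodes the kinase at the centre of the pathway, was measured at 18.6, 25.3 and 21.1 CPM in control and 23.9, 17.5 and 15.4 CPM in miDrp1KO replicates 1 to 3. Replicates 2 and 3 of the miDrp1KO group lay below every control library and replicate 1 among the controls. Mean levels of 21.7 ± 3.38 and 18.9 ± 4.40 CPM (SD, n = 3 each) gave a log2 fold change of −0.19 (SE 0.20, 95% interval −0.63 to 0.24, edgeR adjusted p = 0.757). *Lrp4* (Entrez 228357, chromosome 2, 91457456 to 91513901), the agrin receptor, was measured at 16.8, 12.3 and 14.3 CPM in control and 11.8, 16.4 and 10.99 CPM in miDrp1KO replicates 1 to 3. Replicate 2 of the miDrp1KO group was within the control range and replicates 1 and 3 were below it. Its log2 fold change was −0.15 (SE 0.20, 95% interval −0.59 to 0.29, edgeR adjusted p = 0.825).

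Downstream of MuSK, *Dok7* (Entrez 231134, chromosome 5, 35056571 to 35087839), whose product binds and activates the kinase from inside the fibre, was measured at 4.36, 2.77 and 4.96 CPM in control and 3.35, 3.58 and 4.66 CPM in miDrp1KO replicates 1 to 3. All 3 miDrp1KO values lay inside the control range, and the log2 fold change was −0.09 (SE 0.27, 95% interval −0.67 to 0.50, edgeR adjusted p = 0.932). *Rapsn* (Entrez 19400, chromosome 2, 91035472 to 91045729), which encodes the receptor scaffold rapsyn, was measured at 14.6, 14.8 and 12.7 CPM in control and 11.2, 10.8 and 17.1 CPM in miDrp1KO replicates 1 to 3. The miDrp1KO libraries lay on both sides of the control range, with replicates 1 and 2 below and replicate 3 above it, and their SD of 3.51 CPM exceeded that of the controls, 1.14 CPM. Its log2 fold change was −0.11 (SE 0.20, 95% interval −0.55 to 0.34, edgeR adjusted p = 0.880).

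*Colq* (Entrez 382864, chromosome 14, 31523082 to 31577863) encodes the collagen-like tail that fixes acetylcholinesterase in the synaptic cleft. It was measured at 3.88, 4.23 and 3.76 CPM in control and 3.06, 4.04 and 3.89 CPM in miDrp1KO replicates 1 to 3. Only miDrp1KO replicate 1 lay outside the control range, below it. The log2 fold change was −0.10 (SE 0.23, 95% interval −0.60 to 0.39, edgeR adjusted p = 0.90). A second annotated gene, Gm49387, shares 199 bases (5.82%) of the *Colq* exons on the same strand, so a small part of its counts is uncertain.

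**Figure D2:**
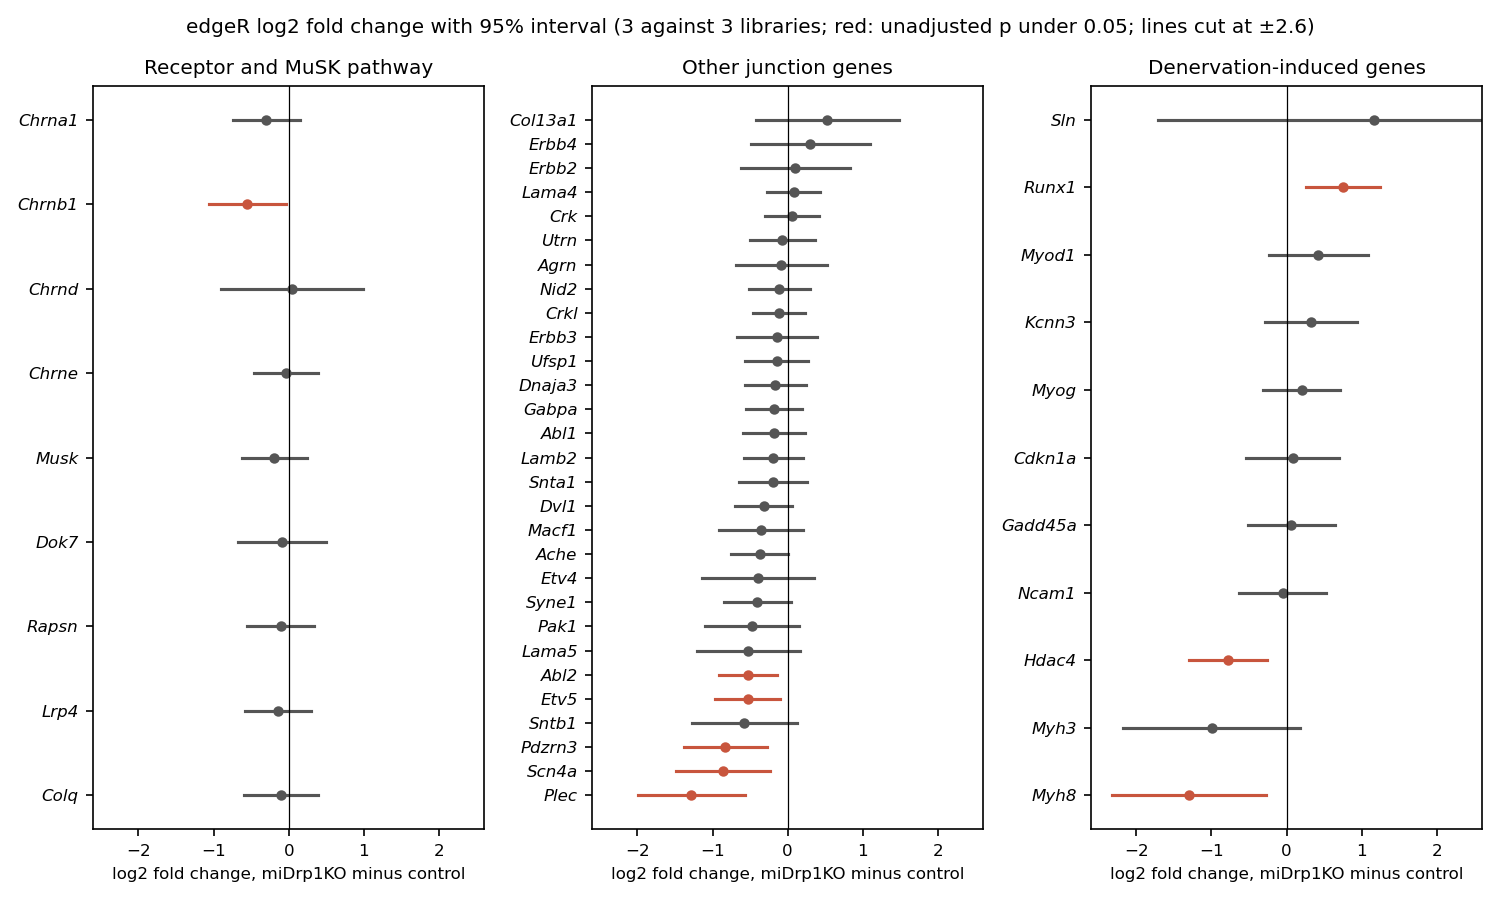
Log2 fold change (miDrp1KO minus control, x axis) with its 95% interval from edgeR for the 9 tested receptor and MuSK pathway genes, 29 other junction genes and 11 of the 12 denervation-induced genes; red marks an unadjusted p under 0.05 and lines are cut at the axis ends. Intervals of 8 of the 9 genes on the left span 0, and *Plec* lies lowest in the middle panel at −1.28.

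The 10 genes were also placed on a scale that allows comparison between genes, CPM per kilobase of merged coding-transcript exons (GENCODE M21, GRCm38). *Rapsn* was highest with 8.32 and *Chrng* lowest with 0.0807 CPM per kb over the 6 libraries, and between them stood *Chrnb1* (7.39), *Musk* (5.90), *Chrne* (3.89), *Chrna1* (2.13), *Lrp4* (1.73), *Colq* (1.11), *Dok7* (1.0) and *Chrnd* (0.466). Neighbours in this order were not always distinct. *Rapsn* exceeded *Chrnb1* in 3 of 6 libraries and *Colq* exceeded *Dok7* in 4 of 6, while *Chrnb1* over *Musk* and *Chrna1* over *Lrp4* held in 5 of 6, so these pairs do not differ beyond their spread. By contrast *Musk* exceeded *Chrne*, *Chrne* exceeded *Chrna1*, *Lrp4* exceeded *Colq*, *Dok7* exceeded *Chrnd* and *Chrnd* exceeded *Chrng* in 6 of 6 libraries. Per length the α1 gene stood below β1 and ε although 2 α1 subunits enter each receptor, and δ stood below all of them. The exon models used for the deposited counts may differ from these lengths, and *Chrna1* in particular has a long model of 4.386 kb.

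**Figure D3:**
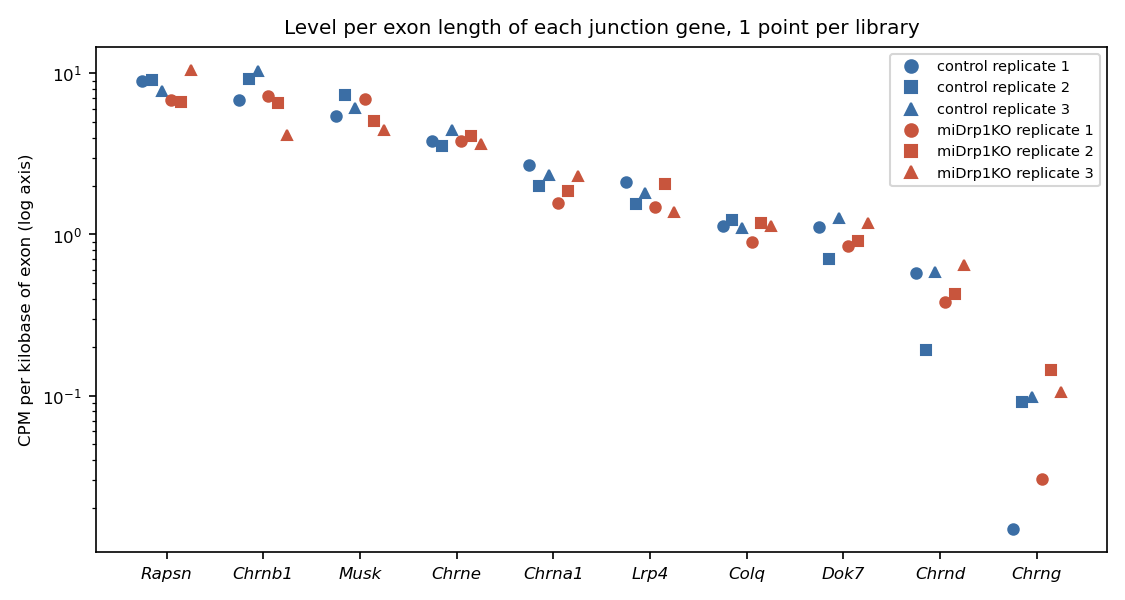
Level of each junction gene in CPM per kilobase of exon (y axis, log scale), ordered by the mean over 6 libraries, with 1 point per library (control blue, miDrp1KO red). Levels fall from 8.32 for *Rapsn* to 0.0807 for *Chrng*, and within each gene the colours overlap.

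Added together, the 10 genes gave 92.66, 94.59 and 98.64 CPM in control and 83.11, 83.15 and 79.23 CPM in miDrp1KO replicates 1 to 3. Every miDrp1KO sum was below every control sum although no single gene separated the groups. This order depends on the scale. The ratio of the miDrp1KO to the control mean was 0.859 with TMM, 0.865 with RLE and 0.914 with upper quartile normalization, all without overlap, but 1.02 with total counts and 1.10 with total counts without ribosomal RNA genes, where the groups overlapped. Total counts as the scale is also the choice that moved the median of all genes to 0.26.

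Set against the muscle fibre markers instead, the 10 genes together had 340, 417 and 347 counts per 1000000 marker counts in control and 390, 648 and 802 in miDrp1KO replicates 1 to 3. On this scale miDrp1KO replicates 2 and 3 were above all controls and replicate 1 was within their range. The marker counts are weighted towards *Ttn* and *Myh4*, whose means were 122651 and 57018 CPM in control and 65649 and 23265 CPM in miDrp1KO muscle. *Mylpf* had means of 8546 and 8364 CPM. The part of single markers in this ratio was not tested.

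**Figure D4:**
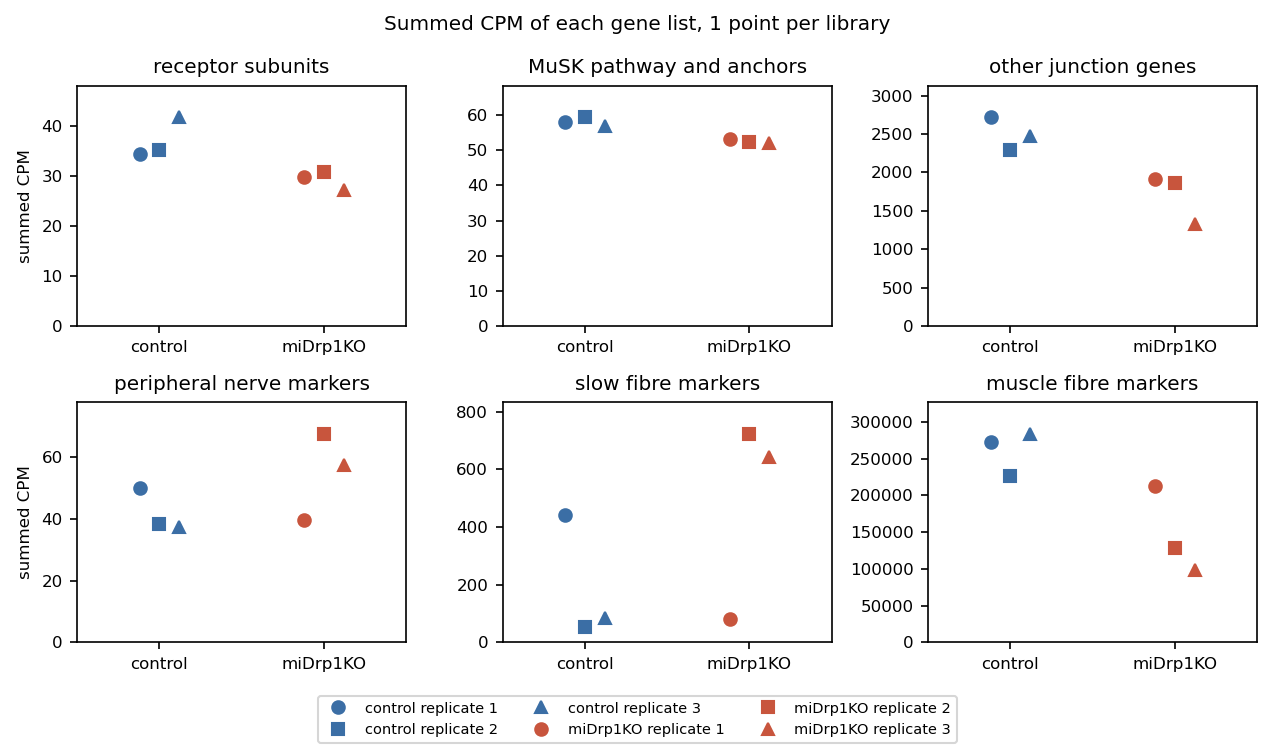
Summed CPM on TMM library sizes (y axis, from 0) of 6 gene lists in each library, 3 control (blue) and 3 miDrp1KO (red). Receptor subunits lie at 34.5 to 41.8 in control and 27.2 to 30.8 in miDrp1KO libraries, muscle fibre markers at 227000 to 283900 and 98750 to 212800, and slow fibre and nerve markers overlap between the groups.

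Beyond these 10 genes, 30 other genes of the junction were read from the same fit. *Nrg1* failed the filter on low counts, and 24 of the 29 tested genes had negative and 5 positive log2 fold changes (median −0.19), with 0 called by edgeR after adjustment. Without adjustment 5 of the 29 were lower at p under 0.05, where all genes gave 6.22%, and 0 were higher, where all genes gave 4.68%. In 8 of the 29 all miDrp1KO values lay below all controls, against 10.3% of all genes. *Plec* (plectin, a cytolinker) stood at 626 ± 123 CPM in control and 257 ± 105 CPM in miDrp1KO muscle (SD, n = 3 each), a log2 fold change of −1.28 (edgeR adjusted p = 0.362). For *Scn4a*, the sodium channel concentrated in the junctional folds, the means were 295 ± 16.9 and 162 ± 68.1 CPM (log2 fold change −0.86, adjusted p = 0.382). *Pdzrn3*, a ubiquitin ligase that binds MuSK, had means of 211 ± 17.3 and 119 ± 42.3 CPM (log2 fold change −0.83, adjusted p = 0.379). *Etv5*, an ETS factor of synaptic nuclei, and *Abl2*, a kinase that acts with MuSK, had log2 fold changes of −0.53 each (edgeR adjusted p = 0.393 and 0.382). Several of these genes are transcribed along the whole fibre and not only at the synapse.

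A few further junction genes were read whatever their values. *Agrn*, which encodes agrin, the ligand of LRP4, had a whole-muscle log2 fold change of −0.08 (SE 0.27, edgeR adjusted p = 0.938), which does not measure nerve-derived agrin by itself. *Utrn*, the dystrophin relative of the junctional folds, had one of −0.07 (SE 0.20, adjusted p = 0.919). *Ache*, the esterase that *Colq* anchors, was measured at 19.4, 16.5 and 22.7 CPM in control and 15.6, 13.5 and 16.5 CPM in miDrp1KO replicates 1 to 3, a log2 fold change of −0.37 (SE 0.17, unadjusted p = 0.0532, edgeR adjusted p = 0.463).

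Genes that denervation induces did not move in one direction. Of 12 such genes, all tested, 8 had positive and 4 negative log2 fold changes (median 0.14), with 0 called by edgeR after adjustment and 4 with an unadjusted p under 0.05, 2 higher and 2 lower, beside 10.9% of all genes. *Runx1*, a transcription factor that protects denervated fibres, was measured at 4.07, 4.01 and 5.40 CPM in control and 6.17, 9.09 and 7.63 CPM in miDrp1KO replicates 1 to 3. Every miDrp1KO value exceeded every control value, with a log2 fold change of 0.75 (SE 0.22, edgeR adjusted p = 0.379).

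Other genes of that list lay on both sides of 0. Among the positive ones, *Sln* had a log2 fold change of 1.16 (SE 1.14), *Myod1* of 0.42 (SE 0.30) and *Kcnn3* of 0.33 (SE 0.28). In each of these the groups overlapped, and 4 of the 12 genes were negative. *Myog*, which encodes myogenin, had a log2 fold change of 0.20 (SE 0.23, edgeR adjusted p = 0.787), and *Ncam1*, the adhesion molecule that spreads over denervated fibres, had one of −0.05 (SE 0.26, adjusted p = 0.962). *Hdac4*, a repressor in the denervation response, was lower in every miDrp1KO library (log2 fold change −0.78, SE 0.23, adjusted p = 0.379). *Myh8*, the perinatal myosin, was lower in all 3 as well (log2 fold change −1.29, SE 0.45, adjusted p = 0.393). How reads shared among the closely similar myosin genes were counted is not given in the sources used here, so the *Myh8* value is uncertain. *Myh4*, the fast IIb myosin, had a log2 fold change of −1.29 as well.

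Nerve and Schwann cell content was read from 10 markers, of which 9 were tested, 7 with a positive and 2 with a negative log2 fold change and 0 with an unadjusted p under 0.05 from edgeR. Their median was 0.29, and their sums were 37.2 to 49.8 CPM in control and 39.6 to 67.4 CPM in miDrp1KO libraries. None of the 10 was at 0 over the 6 libraries. Slow fibre markers, 7 of 7 with positive log2 fold changes, ranged widely within each group, from 52.8 to 442 CPM in control and 81.2 to 723 CPM in miDrp1KO libraries. The part of fibre type or nerve content in the values of the junction genes was not tested.

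The neuronal relatives of the receptor were low in this tissue, with 1 exception. Of 11 genes for other nicotinic subunits, 6 were tested, 4 with positive and 2 with negative log2 fold changes and 0 with an unadjusted p under 0.05 from edgeR, beside 10.9% of all genes. Only *Chrna10*, at 12.5 ± 0.249 CPM in control and 11.2 ± 3.80 CPM in miDrp1KO muscle (SD, n = 3 each), reached a mean of 2 CPM in either group. Of the 5 that failed the filter on low counts, *Chrna5* had 2, 1 and 19 counts in control and 7, 24 and 16 in miDrp1KO replicates 1 to 3, or 0.0947, 0.0729 and 0.316 CPM and 0.340, 0.588 and 0.768 CPM. Every miDrp1KO value lay above every control value (p = 0.1 by exact two-sided permutation, which 3 against 3 cannot go below), with 2 control libraries under 3 counts.

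The genes most like *Chrna1* across the libraries were sought among 13563 genes with a mean of at least 1 CPM. Pearson's r of log2 CPM over the 6 libraries, given as a description, was 0.993 for *Parl*, 0.993 for *Nup54*, 0.988 for *Mtch2*, 0.982 for *Pus1* and 0.980 for *Rhot2*. Among the junction genes it was highest for *Dok7* (0.658) and *Rapsn* (0.646), followed by *Colq* (0.530), *Chrnd* (0.514), *Lrp4* (0.384) and *Chrne* (0.102), and it was negative for *Chrnb1* (−0.0993) and *Musk* (−0.465). Of the tested genes, miDrp1KO replicate 3 held both the lowest *Chrnb1* and the highest *Rapsn* value.

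**Figure D5:**
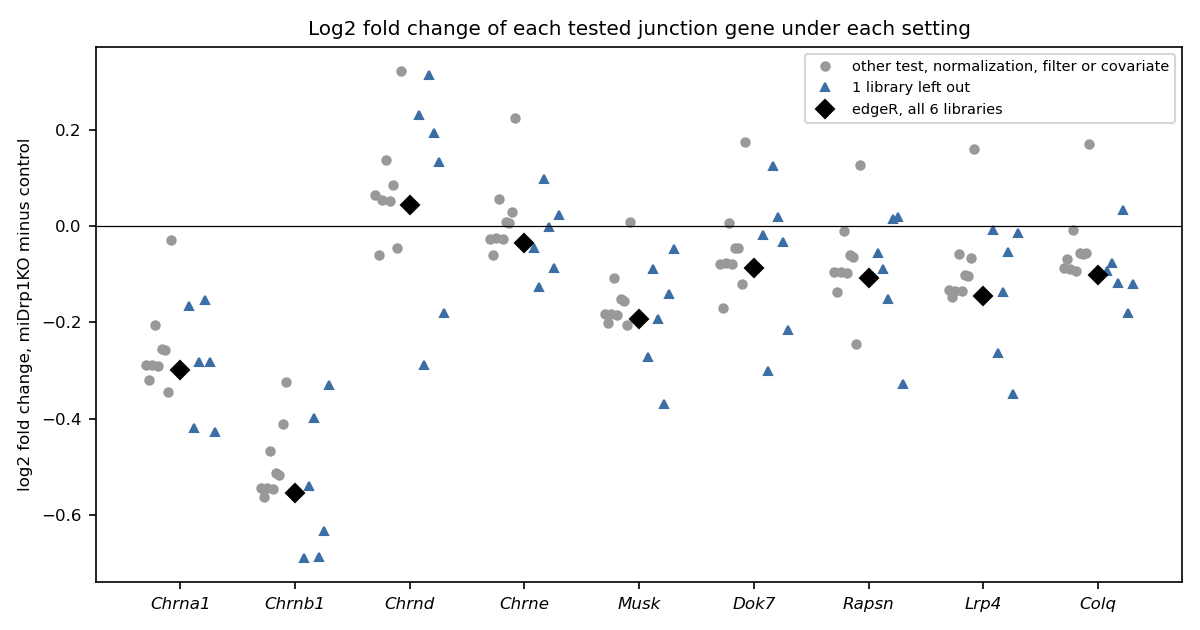
Log2 fold change (miDrp1KO minus control, y axis) of the 9 tested junction genes from edgeR with all 6 libraries (black diamonds), with another test, normalization, filter or covariate (grey) and with 1 library left out (blue). *Chrna1* and *Chrnb1* stay below 0 in all 15 alternatives, while the other 7 genes cross 0 in at least 1.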

How the data were processed

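RNA was rRNA-depleted (TruSeq Stranded Total RNA, RiboZero Gold), and per the study's methods reads were aligned to GRCm38 and counted with Rsubread 2.4.2. What the authors deposited are raw counts by Entrez identifier; strand and overlap settings are not given in the sources used here. The authors used DESeq2 1.30.0 (submitters' processing notes).

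Groups came from the labelled genotype. Titles give each sample its own number, but nothing states separate litters or days, so p-values measure the spread between these samples. Per the study's methods sequencing used 2 library pools, and the sources used here do not say which pool held each library. Tests used edgeR 4.0.16 under R 4.3.3 (TMM, filterByExpr, robust quasi-likelihood fit, Benjamini-Hochberg over 16483 genes, threshold 0.05), and the code was tested on simulated data. Standard errors are the log2 fold change over the square root of F. Alternatives were DESeq2 1.42.0, limma 3.58.1 voom, other normalizations and filters, ribosomal RNA genes left out or as a covariate, and each library left out; total counts and fibre markers as scales, and the summed level of the 10 genes under every scale other than TMM, were added after seeing the data. Between 1298 and 5922 counts per library fell on the 10 genes. Intervals cover counting error only where called exact.

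The members and gene lists were chosen with earlier results of these data known. Named were all members, *Dnm1l*, *Agrn*, *Ache*, *Utrn*, *Myog*, *Ncam1*, *Runx1*, listed genes with an unadjusted p under 0.05, and the 5 genes nearest *Chrna1*. *Nr4a1*, also in the rule, stood at 94.2 ± 13.6 CPM in control and 63.7 ± 34.5 CPM in miDrp1KO muscle (SD, n = 3 each), with overlapping groups (edgeR adjusted p = 0.584). A listed gene that the rule would name is not reported here. Others named (*Chrna10*, *Nrg1*, *Pax7*, *Chrna5*, *Sln*, *Myod1*, *Kcnn3*) were chosen after their values were seen.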

Additional observations from a re-analysis of the deposited data

How the results depend on the processing

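No paired analysis was possible because numbering of replicates only follows the order of the samples and mark no shared animal, litter or day. Alternatives gave 134 values for the junction genes, of which 125 had an adjusted p and 0 of these passed the threshold, while the 9 from DESeq2 had none. In all, 112 of the 134 had the direction of the fit with all libraries. For the changes that follow, the cause was not tested.

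The number of genes called over the whole table was 2, and 94 with DESeq2 (of 4018 genes with an adjusted p), 1 with limma voom, 8 with no filter on low counts, 1 with ribosomal RNA share added as covariate, 45 with total counts as the scale, 1796 without adjustment, and 1 to 7 when 1 library was left out. The number of junction genes with an unadjusted p under 0.05 was 1, and 0 with upper quartile normalization, with ribosomal RNA share added as covariate and with total counts, and 0 to 1 when 1 library was left out. Their median log2 fold change was −0.11, turned to 0.16 with total counts, and ran from −0.26 to −0.0013 when 1 library was left out. The ratio of summed levels moved from 0.859 to 0.914 with upper quartile normalization and turned to 1.02 with total counts and 1.1 with total counts without ribosomal RNA, against 0.847 to 0.874 when 1 library was left out. The *Chrng* share differed by −0.0319 to 2.69 percentage points when 1 library was left out.

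Values on the other side of 0 (log2 fold change) were −0.061 for *Chrnd* with limma voom; 0.055 for *Chrne* and 0.0057 for *Dok7* with upper quartile normalization; 0.0080 for *Chrne* with at least 10 counts in every library and 0.0053 with *Lars2* and the ribosomal RNA genes removed; −0.045 for *Chrnd* and 0.029 for *Chrne* with ribosomal RNA share added as covariate; and with total counts 0.23 for *Chrne*, 0.0083 for *Musk*, 0.17 for *Dok7*, 0.13 for *Rapsn*, 0.16 for *Lrp4* and 0.17 for *Colq*. When 1 library was left out, values ran from −0.43 to −0.15 for *Chrna1*, −0.69 to −0.33 for *Chrnb1*, −0.37 to −0.047 for *Musk*, −0.35 to −0.0078 for *Lrp4*, −0.29 to 0.31 for *Chrnd*, −0.13 to 0.099 for *Chrne*, −0.30 to 0.12 for *Dok7*, −0.33 to 0.018 for *Rapsn* and −0.18 to 0.033 for *Colq*. At 1 to 19 counts per library, depth limits *Chrng* most.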

Other observations

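Satellite cells, the muscle stem cells beneath the fibre's basal lamina, were read from 5 markers as another cell type of the sample. Their summed level overlapped between the groups, at 24.1 to 28.2 CPM in control and 22.8 to 28.2 CPM in miDrp1KO libraries, and 0 of the 5 were called by edgeR after adjustment, with 2 at an unadjusted p under 0.05, 1 higher and 1 lower, beside 10.9% of all genes. *Cdh15*, which encodes M-cadherin, was measured at 12.3, 14.4 and 15.3 CPM in control and 9.72, 6.86 and 8.25 CPM in miDrp1KO replicates 1 to 3, a log2 fold change of −0.76 (edgeR adjusted p = 0.362). *Chodl* was higher in every miDrp1KO library, with a log2 fold change of 0.53 (edgeR adjusted p = 0.393). *Pax7*, which defines satellite cells, had one of 0.68 (SE 0.42, edgeR adjusted p = 0.578). It was measured at 1.09, 1.46 and 1.45 CPM in control and 1.12, 3.53 and 1.63 CPM in miDrp1KO replicates 1 to 3. The groups overlapped, and the highest value was that of miDrp1KO replicate 2.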
